A study of Mus musculus with 6 samples.

Results

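The genes described here are 10 feedback genes of the RAS-ERK pathway, Spry1, Spry2, Spry4, Spred1, Spred2, Dusp1, Dusp4, Dusp5, Dusp6 and Egr1, taken by gene symbol from an expression table of 15824 genes. All 10 were found. They were chosen with the low Spry4 count of the KO libraries already known, to set that loss beside the other feedback genes, so their KO and WT values are given as a description with no p-value. The RNA came from alveolar macrophages, phagocytes that live in the air sacs and clear surfactant and particles, sorted by flow cytometry from lungs of mice aged 8 weeks. There were 3 libraries from Men1 knockout mice (KO) and 3 libraries from wild-type mice (WT). The labels name neither the Cre line or other means of deletion nor the strain or sex, and do not tie each library to its own mouse. P-values therefore measure only the spread between these libraries, which may be technical. The common biological coefficient of variation, a measure of that spread within a group, was 1.66%.

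Growth factor receptors switch on RAS, which activates the kinases RAF, MEK and ERK in turn. ERK then induces its own brakes. Sprouty proteins (Spry genes) act between receptors and RAF, Spred proteins carry the RAS-inactivating protein neurofibromin to the membrane, and dual-specificity phosphatases (Dusp genes) remove the activating phosphates from ERK and the related kinases p38 and JNK. Egr1 encodes a zinc finger transcription factor that is transcribed within minutes of ERK activation. In macrophages the pathway lies downstream of the receptors for the growth factors CSF1 and GM-CSF. RNA levels of these genes are often read as a record of ERK signalling, but they are not a measurement of ERK activity.

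Promoter sequences are shown for Dusp5, Dusp1 and Dusp6, because the ERK-responsive factors SRF and CREB bind known short motifs. These 3 phosphatase genes were called lower in KO while differing in those motifs, although the Dusp5 call was lost in 6 of 16 alternative settings. RefSeq windows of 300 bases around the annotated start (build GRCm38.p6) were searched for 7 of the 10 members, which leaves out Spry4, Dusp4 and Egr1. Capitals mark matches to the CArG box bound by SRF and to TGACG, the core of the cAMP response element TGACGTCA. The windows are chr19:53528895-53529194 (plus strand) for Dusp5, chr17:26508423-26508722 (minus strand) for Dusp1 and chr10:99262981-99263280 (plus strand) for Dusp6.
Dusp5: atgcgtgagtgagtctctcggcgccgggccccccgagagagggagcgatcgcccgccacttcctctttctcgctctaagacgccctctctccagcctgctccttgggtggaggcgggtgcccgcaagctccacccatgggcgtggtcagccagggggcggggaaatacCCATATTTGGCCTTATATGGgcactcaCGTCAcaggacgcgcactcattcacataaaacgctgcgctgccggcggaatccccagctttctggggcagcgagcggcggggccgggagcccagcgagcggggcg
Dusp1: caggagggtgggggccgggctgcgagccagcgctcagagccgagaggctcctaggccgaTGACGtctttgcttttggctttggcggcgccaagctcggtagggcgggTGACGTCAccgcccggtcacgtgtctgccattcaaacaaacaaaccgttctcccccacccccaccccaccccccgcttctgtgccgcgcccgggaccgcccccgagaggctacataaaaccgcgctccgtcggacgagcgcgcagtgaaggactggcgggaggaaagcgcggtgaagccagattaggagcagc
Dusp6: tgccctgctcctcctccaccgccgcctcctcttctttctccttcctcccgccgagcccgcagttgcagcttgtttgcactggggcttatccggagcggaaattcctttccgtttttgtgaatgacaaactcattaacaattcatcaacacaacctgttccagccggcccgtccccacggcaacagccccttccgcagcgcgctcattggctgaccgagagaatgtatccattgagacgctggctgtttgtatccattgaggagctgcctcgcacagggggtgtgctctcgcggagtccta
The Dusp5 window held 2 adjoining CArG boxes, starting at positions -82 and -72 relative to the annotated start, and a CArG box occurred in 1.63% of 32851 promoter windows of the same length. The Dusp1 window held 1 full TGACGTCA at position -143, a motif of 1.79% of all windows, besides a further TGACG at position -191. TGACG on either strand, which the full element also contains, was present in 20.8% of all windows, among them those of Dusp5 and Spred2. The letters searched, which also included CCGGAAG for ETS factors (8.86% of all windows) and TGANTCA for AP-1 (7.81%), on both strands, had no match in the windows of Dusp6, Spry1, Spry2 and Spred1. These matches describe letters and not binding.

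Total counts per library lay between 19955242 and 20151990. Men1, which encodes menin, a scaffold protein of histone methyltransferase complexes, had 150, 149 and 165 counts in KO libraries and 639, 594 and 603 counts in WT libraries. General macrophage markers were abundant, with a summed level of 32310 to 33070 CPM (counts scaled to library size) in KO and 27540 to 28700 CPM in WT. Of 13 markers of alveolar macrophages, 9 were in the table, 3 of them with at most 3 counts in every library, and the list summed to 1207 to 1253 CPM in KO and 316 to 325 CPM in WT. Of the 5 markers tested, 2 were higher and 3 lower in KO, against 34.4% and 34.9% of all genes tested. The scavenger receptor gene Marco made up most of the sum, at 1137 ± 22.8 CPM in KO and 172 ± 2.17 CPM in WT, whereas the defining lectin gene Siglecf was low in both groups, at 1.34 ± 0.154 CPM in KO and 2.06 ± 0.381 CPM in WT (SD, n = 3 each). Of 4 Y-linked genes, the summed level was 0 to 0.102 CPM in KO and 162 to 169 CPM in WT, so the genotype cannot be told apart from the presence of Y-linked transcripts. In bulk RNA, fewer cells of a type and less RNA per cell cannot be told apart either.

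Of the 10 members, 8 had lower and 1 (Egr1) had higher RNA levels in KO than in WT at an adjusted p of 0.05 in edgeR's quasi-likelihood test across 11817 genes, and Spry1 did not pass. Of all genes tested, 34.9% passed as lower and 34.4% as higher. At least a 2-fold change was seen for Spry2, Spry4 and Dusp4, all lower in KO, where 4.94% of all genes tested passed with such a decrease and 3.26% with such an increase. All 10 members passed the low-count filter, although Spry4 did so only through its WT libraries. Every KO library lay below every WT library for the 8 genes called lower, as for 35.8% of all genes tested. The median log2 fold change of the members was -0.70, and that of all genes tested was 0.00. Because the choice of members drew on this contrast, these shares carry no weight beyond the description.

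**Figure D1:**
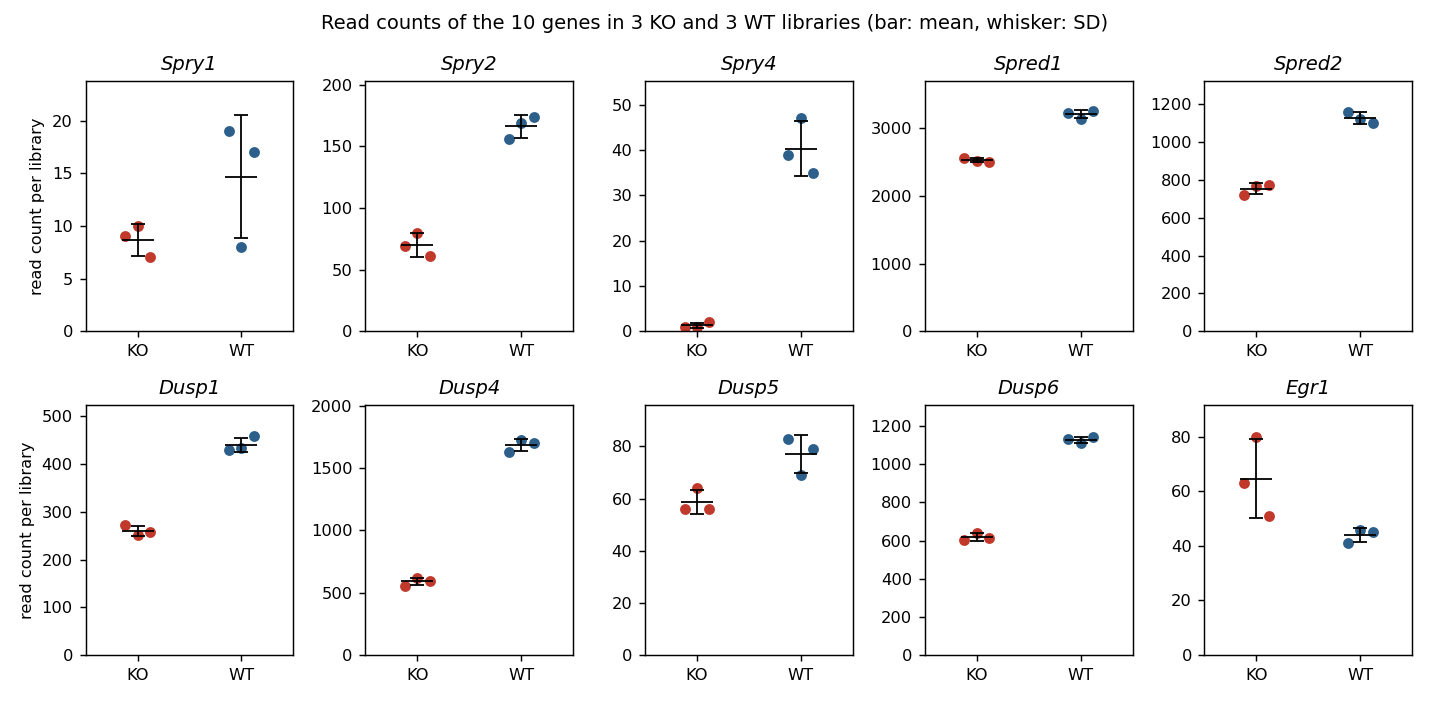
Read counts of each member (vertical axes, each starting at 0) in the 3 KO libraries (red) and the 3 WT libraries (blue), with the mean as a bar and the SD as a whisker. The groups are apart for all genes but Spry1, with KO below WT except for Egr1, and Spry4 is at 1 or 2 counts in KO.

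Among the Sprouty genes, Spry4 was nearly absent from KO libraries. Spry4 (gene ID 24066, chromosome 18 from 38586247 to 38601347 in GRCm38.p6) encodes an inhibitor that blocks RAS-RAF activation downstream of receptor tyrosine kinases. It had 1, 1 and 2 counts in KO libraries 1, 2 and 3, against 39, 47 and 35 counts in WT libraries. These are 4 counts in all KO libraries and 121 in all WT libraries, a WT to KO ratio of 29.1 after library scaling, with an exact 95% counting interval of 11.1 to 108. The interval covers counting error only. The fitted log2 fold change was -4.74 (SE 0.401), a value that depends on the prior count, and 0.11% of the genes tested had a lower one. Even in WT the gene was weakly expressed, at 1.98 ± 0.306 CPM (SD, n = 3), against 0.0679 ± 0.0294 CPM in KO.

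Spry2, the most abundant Sprouty gene here, encodes an inhibitor that is itself a substrate of receptor tyrosine kinase signalling. Its counts were 69, 80 and 61 in KO libraries and 156, 169 and 174 in WT libraries. The KO mean was 43.8% of the WT mean, and the log2 fold change was -1.19 (SE 0.116). Spry1 (chromosome 3 from 37639947 to 37644599) had 9, 10 and 7 counts in KO libraries and 19, 8 and 17 counts in WT libraries. Its groups overlapped, because WT library 2 lay within the KO range. The Spry1 log2 fold change of -0.70 had an SE of 0.355 and did not pass the test, but it was -0.99 and passed without WT replicate 2. The Spry1 ratio of WT to KO counts was 1.63, with an exact 95% counting interval of 0.98 to 2.75 that also holds the 2.28-fold decrease of Spry2.

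Spred1 and Spred2 were expressed at far higher levels than the Sprouty genes and had smaller fold changes than Spry2 and Spry4. Spred1 (chromosome 2 from 117121071 to 117182279), mutated in the RASopathy Legius syndrome in humans, had 2562, 2522 and 2500 counts in KO libraries, against 3223, 3144 and 3254 counts in WT libraries. Its log2 fold change was -0.29 (SE 0.0266), and the KO mean was 82.0% of the WT mean. Spred2 (chromosome 11 from 19924442 to 20024026), its close relative, had 722, 766 and 775 counts in KO libraries and 1160, 1123 and 1100 counts in WT libraries, with a log2 fold change of -0.52 (SE 0.0421). In both genes the libraries of a group were close together and the groups were well apart.

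The phosphatase genes differed in size of change, with Dusp4 first. Dusp4 (chromosome 8 from 34807610 to 34819894) encodes a nuclear phosphatase for ERK and JNK. It had 557, 616 and 597 counts in KO libraries, against 1629, 1723 and 1702 counts in WT libraries. Its KO mean was 36.4% of the WT mean, and the log2 fold change was -1.46 (SE 0.0420). Dusp6 (chromosome 10 from 99263231 to 99267489), whose cytoplasmic product is selective for ERK, had 604, 641 and 613 counts in KO libraries and 1132, 1111 and 1143 counts in WT libraries, a log2 fold change of -0.81 (SE 0.0424). For both genes the lowest WT library was well above the highest KO library.

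Dusp1 (chromosome 17 from 26505591 to 26508472) encodes a nuclear phosphatase that acts mainly on p38 and JNK. Its counts were 272, 252 and 257 in KO libraries and 429, 434 and 458 in WT libraries, with a log2 fold change of -0.70 (SE 0.0641). On the opposite strand it overlaps Ergic1, a gene of trafficking between endoplasmic reticulum and Golgi, and strand use in counting is not stated, so reads of the pair may be mixed. Ergic1, named after its values were seen, was at 105 ± 1.16 CPM in KO and 125 ± 4.02 CPM in WT (SD, n = 3 each). Dusp5 (chromosome 19 from 53529145 to 53541809), a nuclear phosphatase selective for ERK, had 56, 64 and 56 counts in KO libraries and 83, 69 and 79 counts in WT libraries. The groups did not overlap, but only 5 counts separated the nearest pair of libraries. The Dusp5 log2 fold change was -0.34 (SE 0.142), and the call was lost without KO replicate 1 (-0.30), KO replicate 3 (-0.30), WT replicate 1 (-0.28) or WT replicate 3 (-0.32), in DESeq2 (-0.33), and where the biological coefficient of variation was set to 0.1 (-0.34).

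Egr1 moved against the other members. It had 63, 80 and 51 counts in KO libraries, against 41, 46 and 45 counts in WT libraries. Every KO library lay above every WT library for Egr1, as for 35.4% of all genes tested. Its log2 fold change was 0.61 (SE 0.170), with KO libraries spread more widely than WT libraries (3.29 ± 0.749 CPM in KO and 2.16 ± 0.129 CPM in WT; SD, n = 3 each). The value was 0.43 without KO replicate 2, the highest library, and 0.76 without KO replicate 3. With limma it was 0.27 for log2(FPKM + 1) and 0.26 for log2(TPM + 1), with Egr1 still called higher.

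**Figure D2:**
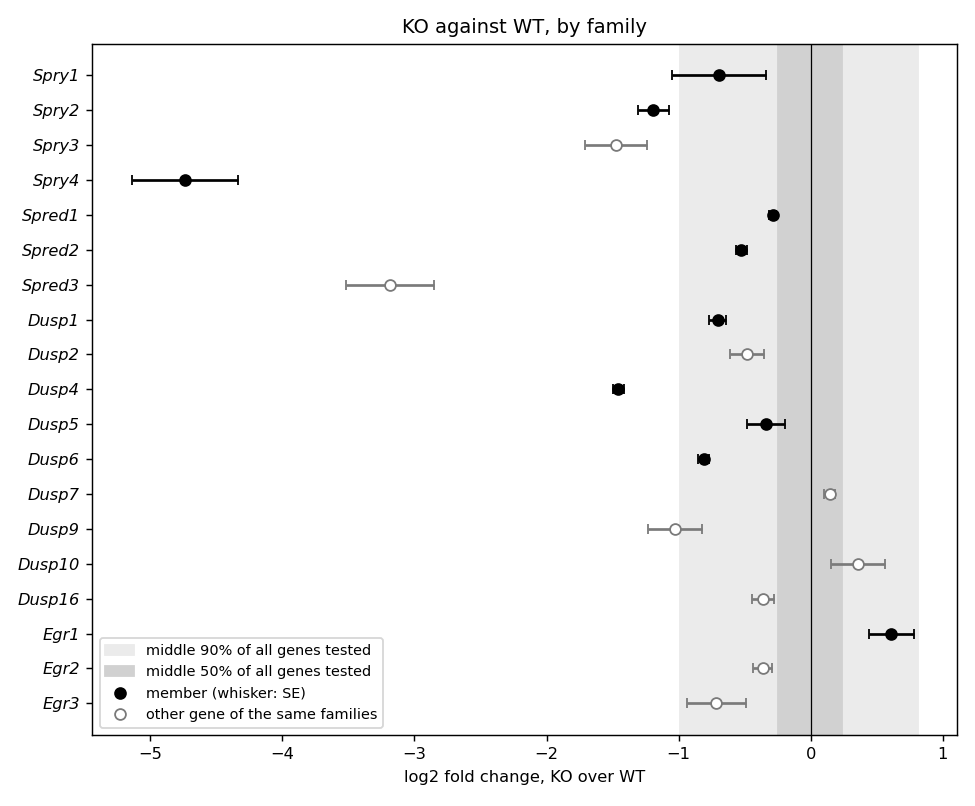
Log2 fold change of KO over WT (horizontal axis) for the members (filled points) and other genes of the same families (open points), with the SE as a whisker, grouped by family from top to bottom. Spry4 at -4.74 and Spred3 at -3.19 lie farthest left, and Egr1 at 0.61 is the rightmost member, while the grey bands hold the middle 50% and 90% of all genes tested.

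Levels of different genes were compared as FPKM, fragments scaled to transcript length and library size by the authors. In KO the order was Spred1 (21.2 ± 0.234), Dusp4 (14.1 ± 0.705), Dusp6 (12.5 ± 0.395), Spred2 (11.02 ± 0.540), Dusp1 (8.07 ± 0.338), Dusp5 (1.97 ± 0.153), Spry2 (1.97 ± 0.251), Egr1 (1.18 ± 0.266), Spry1 (0.233 ± 0.0404) and Spry4 (0.0133 ± 0.00577), all as mean FPKM ± SD with n = 3. In WT the order was Dusp4 (40.2 ± 1.03), Spred1 (26.8 ± 0.397), Dusp6 (22.9 ± 0.282), Spred2 (16.1 ± 0.532), Dusp1 (13.7 ± 0.388), Spry2 (4.66 ± 0.226), Dusp5 (2.60 ± 0.248), Egr1 (0.803 ± 0.0473), Spry4 (0.463 ± 0.0709) and Spry1 (0.397 ± 0.157). Neighbours in these orders were apart in all libraries except Dusp5 and Spry2 in KO, and Spry4 and Spry1 in WT. Dusp4 thus stood first in WT and behind Spred1 in KO.

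**Figure D3:**
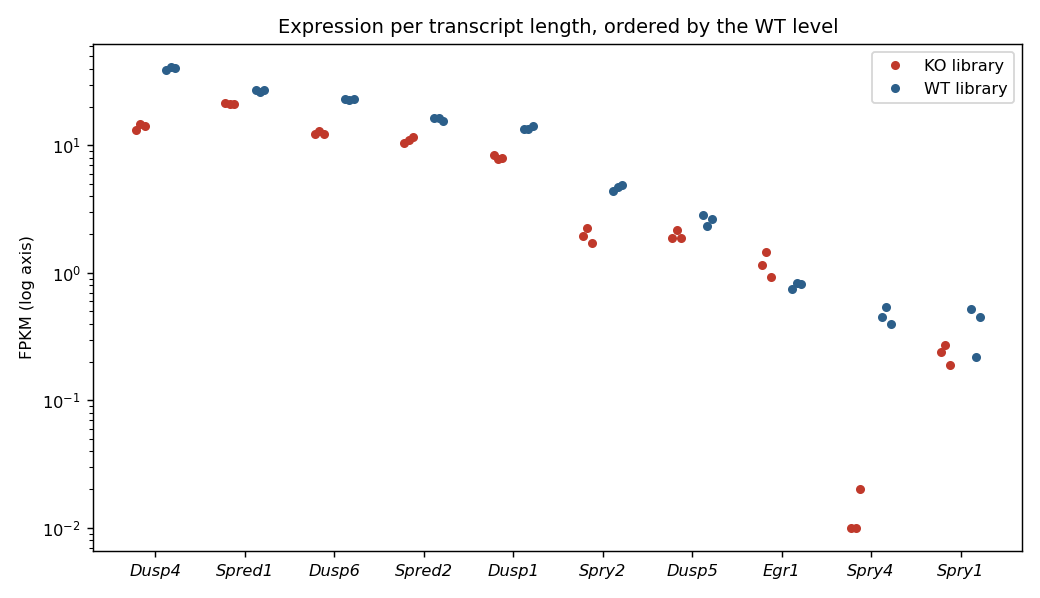
FPKM of each member on a log axis in every KO library (red) and WT library (blue), ordered from left to right by the WT level. Dusp4 has the highest WT level at 40.2 FPKM and falls below Spred1 in KO, and Spry4 is at 0.01 or 0.02 FPKM in KO.

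Summed over the 9 brakes, the level was 71.1 ± 1.19 FPKM in KO and 128 ± 0.41 FPKM in WT (SD, n = 3 each). Of this difference in FPKM, Dusp4 made up 46.0%, Dusp6 18.2%, Spred1 9.95%, Dusp1 9.87%, Spred2 8.99% and Spry2 4.74%. Spry4, with by far the lowest ratio, made up 0.793%. The 4 Dusp members summed to 36.6 ± 0.900 FPKM in KO and 79.4 ± 0.844 FPKM in WT, the 2 Spred members to 32.2 ± 0.311 FPKM in KO and 43.0 ± 0.607 FPKM in WT, and the 3 Sprouty members to 2.21 ± 0.286 FPKM in KO and 5.52 ± 0.164 FPKM in WT.

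Other genes of the same families were lower in KO in 7 of 9 tested cases and higher in 1, with a median log2 fold change of -0.48. Over all genes tested, 34.9% were lower and 34.4% higher. Spred3, the third Spred gene, had 4, 8 and 1 counts in KO libraries and 40, 47 and 39 counts in WT libraries, a WT to KO ratio of 9.32 (exact 95% counting interval 5.26 to 17.99). Like Spry4, it passed the low-count filter only through its WT libraries, so no p-value is given for it. Spred3 is counted among the 7, and the median includes it. Spry3, the fourth Sprouty gene, had 11, 18 and 13 counts in KO libraries and 39, 45 and 38 counts in WT libraries (log2 fold change -1.47, SE 0.237; adjusted p = 1.25e-06). This and all further adjusted p-values come from the same edgeR fit, adjusted by Benjamini and Hochberg's method over all genes tested. Spred3 and Spry3 were weakly expressed and had no overlap between groups, with KO below WT as for 35.8% of all genes tested. The ERK and JNK phosphatase genes Dusp9, Dusp2 and Dusp16 fell, with log2 fold changes of -1.03, -0.48 and -0.36. Dusp7, an ERK phosphatase gene, was at 61.0 ± 2.73 CPM in KO and 55.2 ± 1.97 CPM in WT (log2 fold change 0.14; adjusted p = 0.00167), and this call was lost with limma on log2(FPKM + 1), log2(FPKM + 0.1) and log2(TPM + 1). Dusp10, which acts on p38 and JNK, had a log2 fold change of 0.36 (SE 0.203) and did not pass.

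Egr2 and Egr3 moved opposite to Egr1, and Egr4, with at most 1 count in any library, was not tested. Egr2 fell to 12.4 ± 0.708 CPM in KO, against 15.95 ± 1.28 CPM in WT (log2 fold change -0.36; adjusted p = 5.14e-05), and Egr3 fell to 1.17 ± 0.182 CPM in KO, against 1.93 ± 0.496 CPM in WT (-0.72; adjusted p = 0.00498). Nab2 and Nab1, corepressors of Egr proteins, also differed in direction, with log2 fold changes of 0.31 and -0.45. Whether these genes differ from Egr1 in their response was not tested.

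Genes known as transcriptional outputs of ERK were lower in KO in 12 of 17 tested cases and higher in 4, with a median log2 fold change of -0.59. Over all genes tested, 34.9% were lower and 34.4% higher. The 12 include Fosl1, Etv4, Epha2 and Lif, named after their values were seen, which passed the low-count filter only through their WT libraries. These genes are also among the 6 output genes at least 2-fold lower, and the median includes them. Emp1, a membrane protein gene, was at 466 ± 10.3 CPM in KO and 625 ± 10.3 CPM in WT (log2 fold change -0.42; adjusted p = 8.21e-20). Ccnd1, the cyclin D1 gene, fell by 1.26 on the log2 scale (adjusted p = 6.37e-31), and the potassium channel gene Kcnn4 fell by 0.31 (adjusted p = 4.57e-12). Etv5, which encodes an ETS factor, rose by 0.43 (adjusted p = 1.3e-13), at 102 ± 1.999 CPM in KO and 76.2 ± 3.62 CPM in WT. Trib1, a pseudokinase gene, and Ier3, an early response gene, rose by 0.16 and 0.18, but both calls were lost with library totals only and with limma on the FPKM and TPM scales. The number of higher genes was 2 without WT replicate 3.

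Genes of the signalling chain itself went both ways. In the RAS-ERK cascade list, 10 of 22 genes were higher in KO, 5 lower and 7 neither, with a median log2 fold change of 0.05. The shares of 45.5% higher and 22.7% lower stood against 34.4% and 34.9% of all genes tested. Mapk3, which encodes ERK1, rose to 249 ± 2.496 CPM in KO, against 187 ± 3.14 CPM in WT (log2 fold change 0.41; adjusted p = 1.77e-17). The adaptor gene Grb2 rose by 0.15 and the phosphatase gene Ptpn11 by 0.11, whereas the RAS gene Nras fell by 0.37 and the RAF activator gene Shoc2 fell by 0.26. On the log2(TPM + 1) scale, where the median of all genes tested was -0.12, limma found 3 cascade genes higher and 10 lower, Grb2 did not pass and Ptpn11 had a value of -0.03. The Ptpn11 call was also lost with library totals only and with limma on both FPKM scales. On that scale 2463 of all genes were higher and 5781 lower, against 4060 and 4119 in the count test.

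Among kinases and factors downstream of ERK, 9 of 17 genes were higher and 4 lower, with a median of 0.12. The shares were 52.9% and 23.5%, against 34.4% and 34.9% of all genes tested. Mknk2, a kinase of the translation factor eIF4E, rose by 0.34 (adjusted p = 7.66e-13), and Ets2, an ETS factor gene, fell by 0.58 (adjusted p = 1.49e-19). Srf, whose product binds the CArG box, fell by 0.25 (adjusted p = 1.75e-05), and Etv6, an ETS repressor gene, fell by 0.19. The kinase genes Rps6ka1 and Rps6ka3 rose by 0.12 and 0.15, but had values of -0.03 and -0.02 on the log2(TPM + 1) scale and did not pass on either FPKM scale. Other brakes of RAS signalling divided, with 9 of 19 higher (47.4%) and 8 lower (42.1%) and a median of 0.01. Ptpn6, a phosphatase gene of myeloid cells, rose by 0.52 (adjusted p = 2.54e-22) and the ERK-binding protein gene Pea15a by 0.42. Inpp5d, a lipid phosphatase gene, rose by 0.11, but had a value of -0.02 on the log2(TPM + 1) scale and did not pass on either FPKM scale. In contrast, the RAS GTPase-activating protein gene Rasa1 fell by 0.31 and the adaptor gene Sh2b3 by 0.09.

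**Figure D4:**
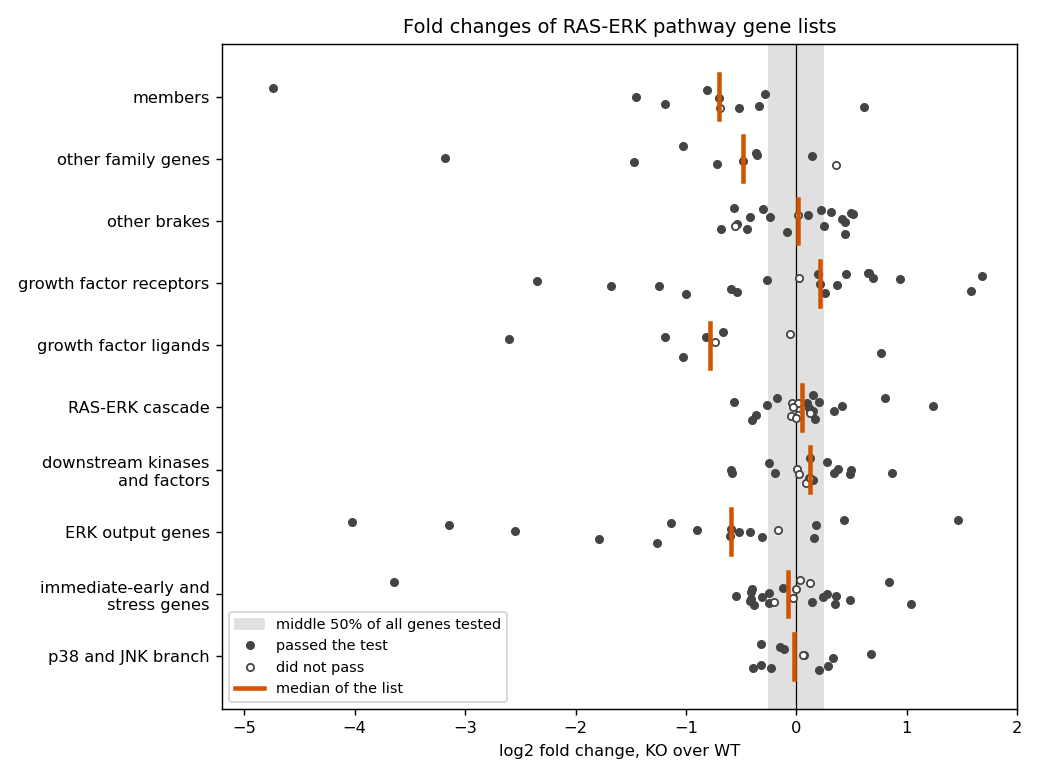
Log2 fold change of KO over WT (horizontal axis) for each tested gene of the members and of the pathway lists (rows, spread vertically at random), with the list median as an orange bar. The medians of the members (-0.70), other family genes (-0.48), ligands (-0.78) and ERK output genes (-0.59) lie left of the grey band with the middle 50% of all genes tested, and those of the other lists lie inside it.

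Receptors and ligands upstream of RAS moved in both directions. Of 19 receptor genes tested, 11 were higher and 7 lower in KO, with a median log2 fold change of 0.21. These shares were 57.9% and 36.8%, against 34.4% and 34.9% of all genes tested. Pdgfra, counted among the 7 and named after its values were seen, passed the low-count filter only through its WT libraries. Csf1r, the CSF1 receptor gene, rose to 2738 ± 28.5 CPM in KO, against 1432 ± 17.6 CPM in WT (adjusted p = 1.84e-33), and the GM-CSF receptor chain genes Csf2rb and Csf2rb2 rose by 0.20 and 0.36. Met, the receptor gene for hepatocyte growth factor, fell to 27.2 ± 0.999 CPM in KO, against 86.8 ± 3.39 CPM in WT (adjusted p = 2.28e-28), and Axl and Fgfr1 fell by 0.26 and 0.59. Of 8 ligand genes tested, 5 fell (62.5%) and 1 rose (12.5%), and the median was -0.78. Pdgfa, Vegfa and Pdgfb, growth factor genes, fell by 0.66, 1.03 and 1.19, and Igf1 rose by 0.77. Csf1, named after its values were seen, was at 4.52 ± 0.804 CPM in KO and 27.5 ± 0.461 CPM in WT (log2 fold change -2.61; adjusted p = 3.18e-25).

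Immediate-early and stress genes, which rise when tissue is dissociated and include non-ERK inputs, were lower in 11 of 24 tested cases and higher in 8, with a median of -0.08. These shares were 45.8% and 33.3%, against 34.9% and 34.4% of all genes tested. Ccn1, counted among the 11 and named after its values were seen, passed the low-count filter only through its WT libraries. Hsp90aa1, Klf6 and Atf3 fell by 0.25, 0.41 and 0.13, and Nfkbia, Junb and Zfp36 rose by 0.36, 0.24 and 0.28. Fos and Jun, named after their values were seen as textbook partners of Egr1, fell by 0.41 and 0.55 (adjusted p = 2.82e-12 and 1.27e-16). In the p38 and JNK branch, 4 of 12 genes were higher and 6 lower, with a median of -0.03. Mapk14, the p38 alpha gene, and its target kinase gene Mapkapk2 rose by 0.29 and 0.33, and the kinase gene Map3k5 rose by 0.20 but did not pass with limma on the FPKM and TPM scales. Map2k3, a kinase gene upstream of p38, the JNK2 gene Mapk9 and Mapkapk3, a kinase gene downstream of p38, fell by 0.40, 0.11 and 0.15.

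Bgn and Padi4 were among the 3 genes most like Spry4 in pattern, out of 9572 non-member genes whose mean reached 5 CPM. Likeness was the Euclidean distance over the 6 libraries of log2 CPM (prior count of 2) centred on the WT mean of the gene, at 0.66 for Bgn and 0.71 for Padi4. Bgn, an extracellular matrix gene, had 52, 52 and 50 counts in KO libraries and 551, 585 and 586 counts in WT libraries. Padi4, which encodes an enzyme that converts histone arginine to citrulline, had 14, 21 and 14 counts in KO libraries and 213, 243 and 226 counts in WT libraries. With only 2 groups, this likeness mainly reflects the size of the KO to WT difference on that scale, where the prior count compresses the low Spry4 counts. The fitted log2 fold changes were less alike, at -3.42 for Bgn and -3.73 for Padi4, against -4.74 for Spry4. The limit of 5 CPM also left out non-member genes as weakly expressed as Spry4.

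Bgn is also a marker of fibroblasts, which express Sprouty genes, and the marker list of fibroblasts, smooth muscle and mesothelium moved with the members. Of its 15 genes, 12 were tested and all 12 were lower in KO, against 34.9% of all genes tested. Pdgfra, counted among the 12, passed the low-count filter only through its WT libraries. The summed level of the list was 18.5 to 21.7 CPM in KO and 108 to 110 CPM in WT. Col1a1 was at 0.730 CPM in KO and 4.33 CPM in WT, and Dcn at 1.36 CPM in KO and 13.2 CPM in WT, so defining markers were low but not at 0, while Msln had at most 3 counts in every library. The 10 markers of cycling cells were also all lower, with a summed level of 377 to 382 CPM in KO and 922 to 926 CPM in WT. The summed level of epithelial markers was 1.07 to 1.38 CPM in KO and 2.40 to 2.88 CPM in WT, and that of endothelial markers 64.2 to 66.7 CPM in KO and 76.3 to 79.4 CPM in WT. Of 4 endothelial markers tested, 2 were lower and 1 higher, and only 1 epithelial marker was tested. Marker lists of other leukocytes had higher summed levels in KO, but few of their genes were tested. Of 3 neutrophil markers tested, 2 were higher and 1 lower, and the same held for the 3 dendritic cell markers tested. Only 1 B cell marker and 2 T and NK cell markers were tested, all higher, against 34.4% of all genes tested. Neutrophil markers summed to 72.2 to 75.6 CPM in KO and 37.6 to 41.8 CPM in WT, dendritic cell markers to 23.1 to 24.9 CPM in KO and 14.1 to 15.5 CPM in WT, B cell markers to 9.43 to 10.9 CPM in KO and 6.88 to 7.31 CPM in WT, and T and NK cell markers to 3.83 to 4.03 CPM in KO and 1.02 to 1.08 CPM in WT. Among the members, Dusp4, Dusp6 and Spred2 had 30.1 ± 1.63, 31.5 ± 1.08 and 38.4 ± 1.55 CPM in KO. In WT they had 82.5 ± 2.39, 55.3 ± 0.617 and 55.2 ± 1.64 CPM (SD, n = 3 each). A sum of marker levels does not give the share of RNA from a cell type, so it cannot be weighed against these levels. The part of these other cells and of the lower cycling markers in the result was not tested.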

How the data were processed

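Polyadenylated RNA of sorted cells was sequenced in 3 KO and 3 WT libraries, per the labels' protocols. Per the submitters' processing notes, HISAT and Bowtie2 were used with build GRCm38.p6; their roles are not stated. No source used here gives the counter, its annotation or its strand setting. The authors deposited expected counts per gene, which were not whole for 8.66% to 9.19% of genes and were rounded. Per the file headers, the authors also gave FPKM and TPM. A further deposited table holds log2(FPKM + 1) values and was not tested. A deposited normalised count signal was not used. Rows were matched by gene symbol, and coordinates and promoters came from RefSeq tables of GRCm38.p6.

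KO and WT were compared with edgeR 4.0.16 in R 4.3.3 (quasi-likelihood test, TMM scaling, filterByExpr, group as the only term) with Benjamini-Hochberg adjustment over 11817 genes and a threshold of 0.05. SEs are the fold change divided by the square root of the F statistic. Library totals of 19955242 to 20151990 put 3 counts at 0.146 to 0.153 CPM. The members and the gene lists were chosen with earlier results of these data known. Besides the members and the other genes of their families, the text names up to 3 genes per list and direction, those with the highest mean count, and says where others were chosen after their values were seen. Some genes that this rule names are not reported here. Tested on simulated counts for KO against WT (11829 genes), the test called 43 of 50 genes changed 1.25-fold and 48 of 50 changed 1.5-fold. It called all 50 changed 2-fold and 10 of 11629 unchanged genes. These calls are not split by count level, and the changed genes were drawn only from those with a mean WT count of at least 50. Recovery at lower counts, such as those of Spry1, Spry3, Spry4, Spred3 and Egr1, was therefore not tested. Recovery under the spread between mice was not tested either. Alternatives were run with DESeq2 1.42.0 and limma 3.58.1, among others, and summaries and plots used Python 3.11.15 with pandas 2.3.3 and SciPy 1.17.1.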

Additional observations from a re-analysis of the deposited data

How the results depend on the processing

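Each of the 10 members kept its direction in every alternative in which it was tested, and the calls changed only for Spry1 and Dusp5, as described. The number of members called lower ranged from 7 to 9 with single libraries left out and was 7 with at least 50 counts required in 3 libraries, where Spry4 and Spry1 could not be tested. The Spry4 value ranged from -5.12 to -4.58 with single libraries left out, and with limma it was -0.53 for log2(FPKM + 1), -0.69 for log2(TPM + 1) and, with the lower pseudocount, -2.31 for log2(FPKM + 0.1), since a pseudocount compresses a gene at such a level. Same-numbered KO and WT libraries did not deviate together (correlations of -0.018, 0.028 and 0.019). This gave no sign of pairing, but counting noise can hide a shared batch, so the check cannot decide the question. With the replicate number as a block 4121 genes were higher and 4200 lower, with 1 and 8 of the members and -4.74 for Spry4. Counts with at least a 2-fold change were 385 higher and 584 lower over all genes, 0 and 3 for the members, 0 and 3 for other family genes, 1 and 0 for the cascade, 0 and 0 for downstream genes, 0 and 0 for other brakes, 1 and 6 for output genes, 1 and 1 for immediate-early genes, 2 and 3 for receptors, 0 and 3 for ligands, and 0 and 0 for the p38 and JNK branch. Where the biological coefficient of variation was set to 0.1, the counts that moved by over 1.5 times were 2180 higher and 2226 lower over all genes, 0 other family genes higher, 3 and 3 cascade genes, 5 and 2 downstream genes, 2 output genes higher, 4 immediate-early genes higher, 7 receptors higher and 2 p38 and JNK genes lower. On log2(TPM + 1), 2463 genes, 0 other family genes, 3 cascade genes, 5 downstream genes and 2 output genes were higher, and 10 cascade genes were lower. The list medians of cascade, downstream and other brake genes turned to -0.08, -0.02 and -0.11 there. Those of cascade and other brake genes were also below 0 with library totals only (-0.003 and -0.043), for log2(FPKM + 1) (-0.004 and -0.04) and for log2(FPKM + 0.1) (-0.005 and -0.042). On both log2(FPKM) scales 0 other family genes and 2 output genes were higher. With library totals only, 8 cascade genes were lower and 2 output genes higher, and DESeq2 also gave 2 output genes higher. The number of output genes called higher ranged from 2 to 4 with single libraries left out, with 2 without WT replicate 3. Requiring 50 counts left 3 other family genes lower, because fewer were tested. Elsewhere the cause was not tested. The depth limits Spry1, Spry3, Spry4 and Spred3, with at most 47 counts in any library.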
